A study of Mus musculus with 24 samples.

Results

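The cytochrome P450 genes were followed in newborn mouse brain and liver on 24 single-colour arrays. Members were all probes, controls apart, whose gene name begins with Cyp and a digit. A probe was kept if, in any of the 6 groups, the scanner software marked it as well above background on each of the 4 arrays. This kept 80 of 107 such probes, which stand for 60 of 73 P450 genes, out of 41174 probes and 27845 gene names on the array. The Cyp2 genes made up 29 of the 60 genes, the Cyp3 genes 6, the Cyp4 genes 12 and the remaining families 13.

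The 3 groups were NC, controls produced by ICSI (injection of a sperm into an oocyte), CC, clones made from cumulus cells, and G20, clones from cumulus cells that had been serially recloned to generation 20. Each group had 4 brain and 4 liver arrays, and all animals were female neonates of the (C57BL/6 x DBA2) x 129/Sv background. The series asks, by its title, whether errors of reprogramming accumulate when clones are cloned again. NC and CC source names carry numbers that brain and liver share, while every G20 array carries the source name G20-1. No label but the titles says that G20 arrays came from separate animals, and p-values may there measure a spread that is technical.

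Cytochromes P450 are haem enzymes that use oxygen and electrons from a reductase to hydroxylate or epoxidise their substrates. The liver holds most of them: members of the Cyp2 and Cyp3 families clear drugs, steroids and other foreign or endogenous compounds, Cyp4 enzymes oxidise the end of fatty acid chains, and single-copy families make bile acids, sterols, steroid hormones and active vitamin D or break down retinoic acid. Many Cyp2, Cyp3 and Cyp4 genes lie in tandem arrays of close relatives, and in adult mouse liver several differ between the sexes.

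Values are log2 of the scanner's processed signal minus the 75th percentile of the same array, so a value of 0 lies at that percentile. A value is compared between arrays for 1 probe and not between probes, apart from the liver bounds over brain given below. Differences are tested with limma over all genes of a tissue, with Benjamini-Hochberg adjustment over all of them, and a gene is called at an adjusted p under 0.05. Unadjusted p-values were counted for members and lists only, without a share of all genes beside them. Between 57.7% and 59.6% of probes were well above background on NC liver arrays, 60.5% to 62.9% on G20 liver arrays and 53.6% to 56.4% on CC liver arrays. The 75th percentile was 263 to 324 in NC liver, 420 to 536 in G20 liver and 226 to 253 in CC liver. Each group lay on a slide of its own, and the effect of a slide and that of a group cannot be told apart. NC and G20 arrays of a tissue were scanned in the same session, whereas CC arrays were scanned 221 days after the first session, so session and group cannot be told apart where CC is compared. NC brain arrays were scanned 49 days after NC liver arrays and on another slide, so session, slide and tissue cannot be told apart where liver is compared with brain. Hepatocyte markers were in place in the arrays labelled liver: 15 of 15 were well above background on all 4 NC liver arrays, with a mean of 6.39 to 6.75 per array against -5.22 to -5.08 in NC brain, where all 8 neuronal markers were well above background.

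The starts of 8 genes are printed because the liver results turn on members that lie next to each other and moved in opposite directions. Of the 60 members, 45 had an entry in the RefSeq promoter table (GRCm38.p6), and the 250 bases before each start are given 5′ to 3′ on the gene's strand. Capitals mark every match on either strand to 6 motifs: AGGTCA (nuclear receptor half-site), TTCNNNGAA (STAT site), GTTAAT (HNF1 half-site), CAAAGTCC (HNF4 core), TTGCNNAA (C/EBP-type site) and TATAAA, the core of the TATA box. The first 4 are the Cyp2b genes, of which Cyp2b9 and Cyp2b13 were called higher in G20 liver on signal measured in both groups, while Cyp2b10 and Cyp2b19 were near the background: Cyp2b9 at chr7:26173159-26173408, Cyp2b13 at chr7:26061245-26061494, Cyp2b10 at chr7:25897408-25897657 and Cyp2b19 at chr7:26756892-26757141, all on the plus strand.
Cyp2b9: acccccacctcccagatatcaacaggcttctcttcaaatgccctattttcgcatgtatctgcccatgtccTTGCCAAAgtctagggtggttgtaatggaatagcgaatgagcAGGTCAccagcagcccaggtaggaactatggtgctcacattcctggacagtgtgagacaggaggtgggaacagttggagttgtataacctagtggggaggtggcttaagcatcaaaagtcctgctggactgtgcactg
Cyp2b13: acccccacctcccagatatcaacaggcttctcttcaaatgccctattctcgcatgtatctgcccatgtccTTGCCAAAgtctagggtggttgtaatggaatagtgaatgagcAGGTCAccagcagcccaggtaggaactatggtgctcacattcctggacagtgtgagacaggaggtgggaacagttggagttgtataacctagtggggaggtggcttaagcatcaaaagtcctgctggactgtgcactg
Cyp2b10: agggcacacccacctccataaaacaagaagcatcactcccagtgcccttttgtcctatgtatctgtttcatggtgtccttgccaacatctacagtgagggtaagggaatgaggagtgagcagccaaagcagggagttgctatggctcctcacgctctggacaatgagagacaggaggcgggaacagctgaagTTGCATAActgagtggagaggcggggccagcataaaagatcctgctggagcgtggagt
Cyp2b19: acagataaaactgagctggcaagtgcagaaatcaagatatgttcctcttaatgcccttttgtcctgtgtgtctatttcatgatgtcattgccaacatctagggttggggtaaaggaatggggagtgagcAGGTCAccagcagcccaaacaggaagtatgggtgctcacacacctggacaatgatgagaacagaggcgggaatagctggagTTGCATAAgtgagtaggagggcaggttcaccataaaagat

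Cyp2b9 and Cyp2b13 were identical at 248 of 250 positions, and Cyp2b10 matched Cyp2b9 at 126 of 249 aligned positions without gaps. AGGTCA stood in Cyp2b9, Cyp2b13 and Cyp2b19 and was not matched in Cyp2b10. TTGCNNAA was matched in all 4. Of 27018 promoters of the same length, 13.8% hold AGGTCA and 9.56% hold TTGCNNAA.

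Cyp2a4 at chr7:26306942-26307191 and Cyp2a5 at chr7:26835089-26835338, both lower in G20 liver, and Cyp2a12 at chr7:27028840-27029089, which was higher, lie on the same strand of the same cluster. Cyp3a25 at chr5:146009619-146009868 on the minus strand was lower.
Cyp2a4: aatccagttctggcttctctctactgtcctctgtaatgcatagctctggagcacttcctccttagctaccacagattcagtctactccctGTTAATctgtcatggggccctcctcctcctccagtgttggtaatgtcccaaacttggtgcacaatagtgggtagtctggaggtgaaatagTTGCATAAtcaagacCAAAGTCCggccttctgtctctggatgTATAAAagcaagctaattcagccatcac
Cyp2a5: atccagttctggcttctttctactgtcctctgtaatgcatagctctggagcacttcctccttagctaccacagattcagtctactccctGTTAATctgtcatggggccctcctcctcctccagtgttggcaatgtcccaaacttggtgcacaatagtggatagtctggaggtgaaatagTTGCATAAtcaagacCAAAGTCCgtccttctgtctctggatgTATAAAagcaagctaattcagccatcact
Cyp2a12: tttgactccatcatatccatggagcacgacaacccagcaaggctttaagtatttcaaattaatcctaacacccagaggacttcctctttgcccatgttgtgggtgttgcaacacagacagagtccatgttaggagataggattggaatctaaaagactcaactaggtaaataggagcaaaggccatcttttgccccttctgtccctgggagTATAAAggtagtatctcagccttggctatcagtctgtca
Cyp3a25: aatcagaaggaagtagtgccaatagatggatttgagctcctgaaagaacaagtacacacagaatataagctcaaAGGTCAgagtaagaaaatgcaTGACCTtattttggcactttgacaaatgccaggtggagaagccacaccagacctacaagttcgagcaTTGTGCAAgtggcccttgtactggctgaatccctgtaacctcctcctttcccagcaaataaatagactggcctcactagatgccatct

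Cyp2a4 and Cyp2a5 were identical at 245 of 249 aligned positions, while Cyp2a12 matched Cyp2a4 at 75 of 246. Both Cyp2a4 and Cyp2a5 held GTTAAT, TTGCNNAA, CAAAGTCC and TATAAA, of which Cyp2a12 held TATAAA alone. CAAAGTCC is held by 1.22% of all promoters, GTTAAT by 6.52% and TATAAA by 13.0%. Cyp3a25 held AGGTCA in both orientations, 155 and 176 bases before the start at their upstream ends, and a TTGCNNAA match. TTCNNNGAA, held by 7.18% of promoters, was matched in none of the 8. A match of letters is a description and was not tested as a binding site.

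In control animals the family was mostly a liver family. Of 60 genes, 53 were well above background on all 4 NC liver arrays and 28 on all 4 NC brain arrays. Both tissues had 25 of them, liver alone 28 and brain alone 3, which were Cyp19a1, Cyp1b1 and Cyp4x1. The 4 genes with neither were Cyp27b1, Cyp2b10, Cyp2b19 and Cyp2c55. The limma fit over all 24 arrays called 51 genes higher in liver and 7 higher in brain, with 46.2% and 42.7% of all genes called in those directions and 89% in either. The arrays of the tissues did not overlap for 56 members, against 86.1% of all genes.

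Where no NC brain array was well above background, the difference is a lower bound, the liver mean against the dimmest measurable level of the brain arrays. For the 22 genes measured on all 4 NC liver arrays it ran from 11.4-fold to 22158-fold with a median of 975-fold. Cyp2c40, an arachidonic acid oxidase, had the highest bound, and Cyp2g1 the lowest. The approximate bound was 957-fold for Cyp7a1, the rate-limiting enzyme of bile acid synthesis. It was 4129-fold for Cyp2e1, the ethanol-oxidising enzyme, and 3115-fold for Cyp3a11, the main Cyp3a enzyme of adult mouse liver. All 6 Cyp3 genes, 28 of 29 Cyp2 genes and 11 of 12 Cyp4 genes were higher in liver.

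**Figure D1:**
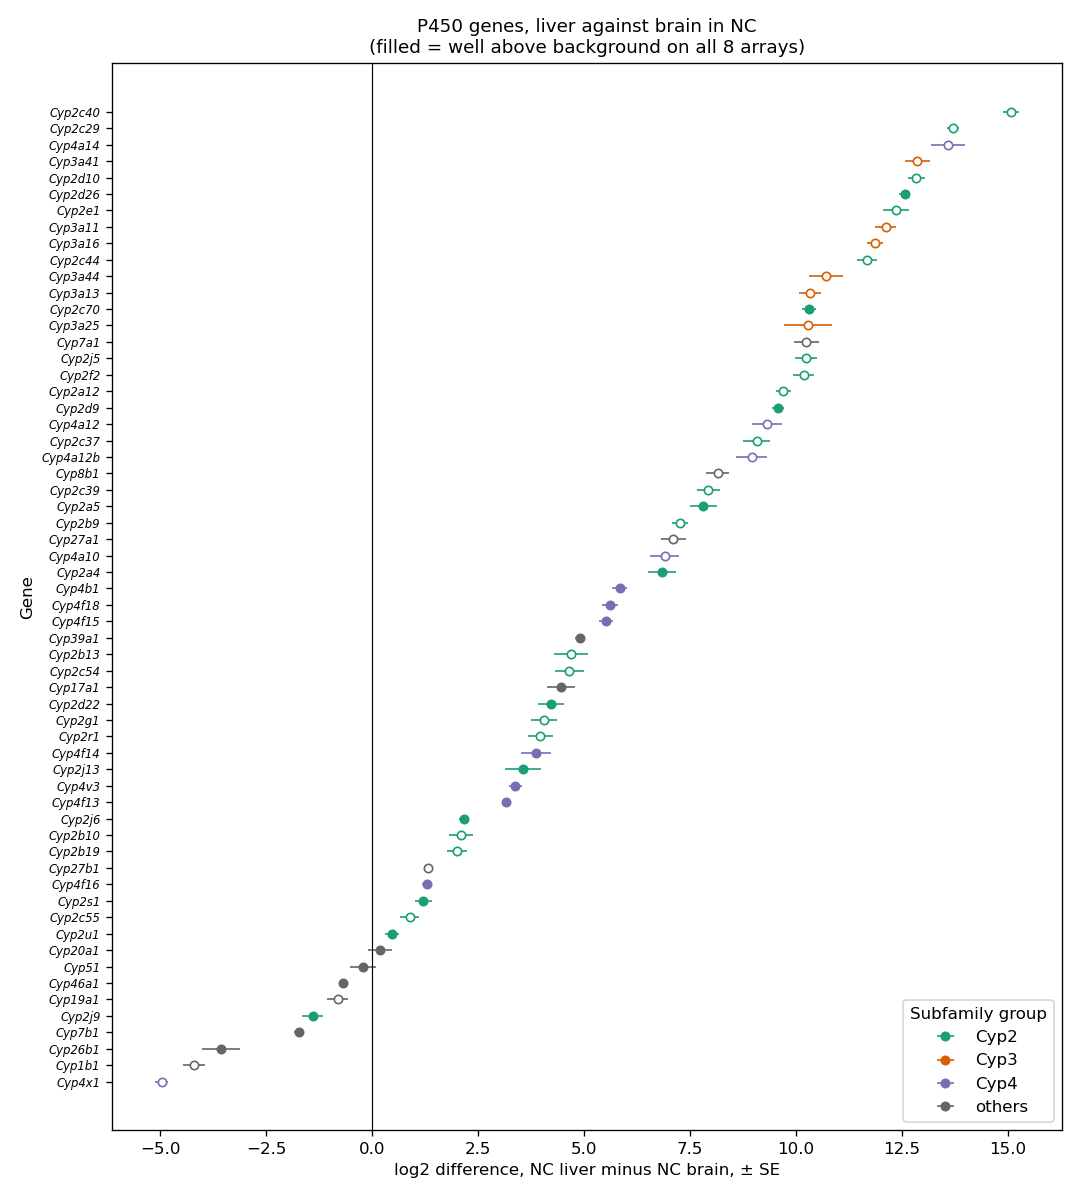
Log2 difference of each of the 60 P450 genes between NC liver and NC brain (n = 4 arrays each), with the standard error of the limma fit, coloured by subfamily group and filled where the gene was well above background on all 8 arrays. 51 genes lie to the right as called higher in liver and 7 to the left as called higher in brain, from Cyp4x1 at -4.96 to Cyp2c40 at 15.07; open points were not well above background on all 8 arrays, and Cyp19a1, Cyp1b1 and Cyp46a1 turn to the right with the normexp background correction.

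Cyp4x1, a brain-enriched enzyme of the Cyp4 family, was at 0.35, 0.29, 0.61 and 0.43 on the NC brain arrays and at -4.30, -4.76, -4.43 and -4.69 on the NC liver arrays. Cyp26b1, which breaks down retinoic acid, was at 1.78, 2.38, 1.85 and 2.41 in brain and at -1.33, -1.59, -2.01 and -0.95 in liver. Cyp7b1, an oxysterol hydroxylase, was at -0.66, -0.80, -0.84 and -0.76 in brain and at -2.43, -2.31, -2.56 and -2.64 in liver. In none of these did the tissues overlap. The limma differences (liver minus brain) were -4.96 ± 0.15 (SE) for Cyp4x1, -3.57 ± 0.45 for Cyp26b1 and -1.72 ± 0.12 for Cyp7b1.

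Cyp1b1, which oxidises oestrogens and aromatic hydrocarbons, was not well above background on any NC liver array and differed by -4.20 ± 0.25. Cyp46a1, the neuronal cholesterol hydroxylase, differed by -0.68 ± 0.10 and Cyp19a1, the aromatase that makes oestrogens, by -0.82 ± 0.24. For these 3 the sign turned to 0.21, 1.17 and 2.10 with a normexp background correction. Cyp2j9, an arachidonic acid epoxygenase, was also higher in brain, by -1.41 ± 0.24 on the liver minus brain scale. Cyp51, the lanosterol demethylase of cholesterol synthesis, and Cyp20a1, an enzyme without a known substrate, were not called, at -0.22 ± 0.31 and 0.19 ± 0.28.

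In liver, G20 animals had lower signal of several fatty acid, steroid and drug oxidising P450 genes and higher signal of Cyp2b9, Cyp2b13 and Cyp2a12. Of 58 members tested, 12 were lower and 6 higher, where 3.09% of all genes were called lower and 3.98% higher, 7.07% in all. Of all genes, leaving out 1 array called 3.53% to 6.91%, with more than 1.5 times fewer genes without any 1 of G20 arrays 2 and 4 or NC arrays 1 and 2. Of the members, 5 were tested only because all 4 G20 liver arrays measured them, among them Cyp27b1, Cyp2b10 and Cyp2b19, which are 3 of the 6 higher genes. A gene kept only through the group where it is high could hardly come out lower there, so these 3 are no support for a direction. With a normexp background correction the members split into 18 lower and 2 higher, where 26.3% and 4.94% of all genes were called in those directions. On the deposited matrix they split into 12 lower and 3 higher, where 2.93% and 3.32% of all genes were called. The arrays of G20 and NC did not overlap for 24 of the 58, against 17.7% of all genes. Among the 24 are all 5 members tested only through the G20 arrays, whose lack of overlap the filter favours. The median difference was -0.33 over the members and 0.02 over all genes tested, and 42 of 58 members had a negative difference. In whole tissue, fewer cells of a type and less RNA per cell cannot be told apart. Of 15 hepatocyte markers 1 was lower (Ttr, the thyroxine carrier transthyretin, at -0.64) and none higher; their mean was 6.25 to 6.72 on the G20 arrays.

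The Cyp4 genes, the fatty acid omega-hydroxylases, gave the largest difference. Cyp4a12, whose probe at chr4:114830670-114830729 (mm8, plus strand) belongs to the gene now named Cyp4a12a, was at 2.58, 1.94, 2.15 and 2.46 on the NC arrays, at 1.05, 1.02, 1.06 and 0.92 on the CC arrays and at -2.71, -2.39, -1.86 and -3.22 on the G20 arrays. The 3 groups did not overlap, with G20 lowest. The G20 difference from NC of -4.83 ± 0.24 (SE) is 28.4-fold (adjusted p = 1.51e-06), and it ran from -5.05 to -3.72 over the 15 alternative settings. This enzyme makes the vasoactive lipid hydroxyeicosatetraenoic acid and is male-biased in adult kidney and liver.

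Its neighbour Cyp4a12b was at 1.85, 1.78, 1.64 and 0.99 in NC and at 0.36, -0.23, -0.84 and -1.20 in G20. The groups did not overlap, and the difference was -2.05 ± 0.42 (adjusted p = 0.0153). Near-identical copies may share signal on a probe, which was not tested. Cyp4a14, induced in adult liver by fasting and by PPAR-alpha ligands, was at 6.61, 6.51, 6.53 and 4.83 in NC and at 5.87, 5.19, 4.16 and 3.93 in G20, so that NC array 4 lay among the G20 arrays. Its difference of -1.33 ± 0.52 was not called (adjusted p = 0.147). Cyp4a10, induced by the same ligands, showed the same low NC array, at 1.53 against 3.16 to 3.28 on the others, and its difference of -0.96 ± 0.48 was not called (adjusted p = 0.251).

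None of the remaining 8 Cyp4 genes was called. The 5 Cyp4f genes, which oxidise leukotrienes and long fatty acids, differed by -0.61 to 0.04. Cyp4b1 and Cyp4v3 differed by -0.07 ± 0.18 and -0.19 ± 0.18. Cyp4x1 was at 0.65 ± 0.18 with an adjusted p of 0.0527. It is dim in liver, well above background on 2 of 4 NC arrays, and its sign turned with the normexp background correction, to -1.29.

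**Figure D2:**
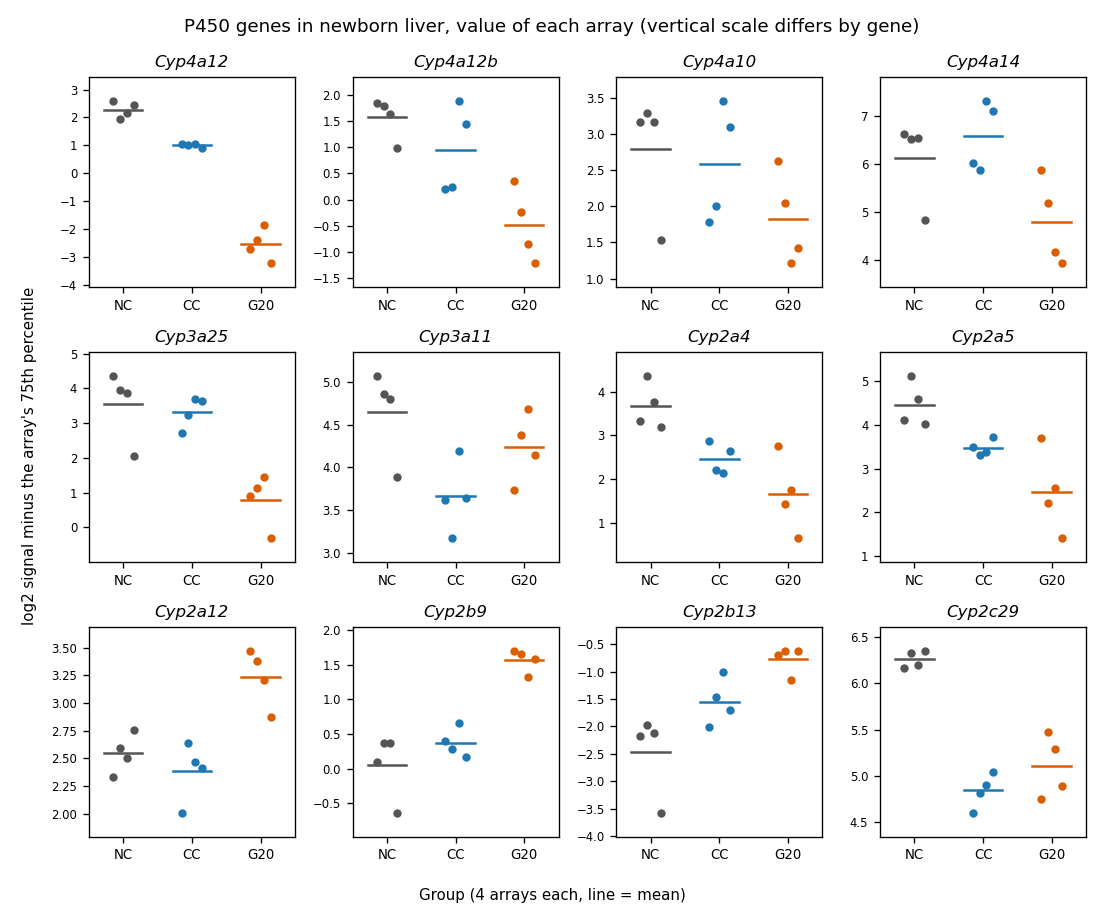
Log2 signal minus the array's 75th percentile for 12 P450 genes in liver, 1 point per array and a line at the mean of the 4 arrays of NC, CC and G20, with a vertical scale of its own for each gene. Cyp4a12, Cyp4a12b, Cyp3a25, Cyp2a4, Cyp2a5 and Cyp2c29 sit lower in G20 than in NC without overlap, Cyp2b9, Cyp2b13 and Cyp2a12 sit higher, and Cyp4a10 and Cyp4a14 have 1 low NC array.

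Among the Cyp3 genes, which clear drugs and steroids, 1 of 6 was called. Cyp3a25 (probe at chr5:146281833-146281892, mm8, minus strand) was at 4.35, 3.95, 3.87 and 2.05 in NC, at 2.72, 3.23, 3.68 and 3.65 in CC and at 0.91, 1.13, 1.46 and -0.30 in G20. All G20 arrays lay below all NC and CC arrays, by -2.75 ± 0.49 against NC, which is 6.75-fold (adjusted p = 0.00831), and its other probe gave -2.62. The genes that mark perinatal or female liver were not called: Cyp3a16 differed by -0.37 ± 0.18, Cyp3a41 by -0.55 ± 0.29 and Cyp3a44 by -0.05 ± 0.29. Cyp3a11 differed by -0.42 ± 0.29 and Cyp3a13 by 0.11 ± 0.30, neither called.

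The Cyp2a genes split. Cyp2a4, a testosterone hydroxylase (probe at chr7:26023673-26023732, mm8, plus strand), was at 3.34, 4.35, 3.77 and 3.19 in NC and at 2.76, 1.44, 1.75 and 0.66 in G20. Cyp2a5, the coumarin hydroxylase (chr7:26551910-26551969), was at 4.10, 5.11, 4.59 and 4.02 in NC and at 3.69, 2.21, 2.56 and 1.42 in G20. In both, NC and G20 did not overlap, and G20 array 1 was nearest to NC. The differences were -2.01 ± 0.39 (adjusted p = 0.0121) and -1.98 ± 0.39 (adjusted p = 0.0136), and all 3 Cyp2a4 probes were called lower, from -2.30 to -2.01. These transcripts may not be told apart by the probes.

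Cyp2a12, another testosterone hydroxylase of the cluster, was at 2.33, 2.60, 2.50 and 2.76 in NC and at 3.47, 3.38, 3.21 and 2.88 in G20. It was higher by 0.68 ± 0.16 without overlap (adjusted p = 0.0265), a call lost in 8 of 15 alternatives, among them those without any 1 of NC arrays 1 to 3 or G20 arrays 1 to 3, at 0.61 to 0.70.

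Cyp2b9 and Cyp2b13 were called higher, and for both the G20 and NC arrays did not overlap. Cyp2b9, female-biased in adult liver (probe at chr7:25919348-25919407, mm8, plus strand), was at 0.10, 0.38, 0.37 and -0.63 in NC, at 0.40, 0.28, 0.66 and 0.17 in CC and at 1.70, 1.66, 1.33 and 1.58 in G20. G20 was above NC by 1.51 ± 0.20, which is 2.85-fold (adjusted p = 0.00183), and its other probe gave the same value, 1.51. Cyp2b13, also female-biased, was at -2.17, -1.98, -2.12 and -3.57 in NC and at -0.70, -0.62, -1.16 and -0.62 in G20. The difference was 1.68 ± 0.33 (adjusted p = 0.0121), but 0.32 and not called with the normexp background correction, and its other probe gave 1.12 and was not called.

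The other 2 Cyp2b genes were near the background, and both were tested only because all 4 G20 liver arrays measured them. Cyp2b10, the gene that phenobarbital induces through the receptor CAR, was at -5.36, -5.86, -4.10 and -5.85 in NC, where 1 of 4 arrays was well above background, and at -3.62, -3.69, -3.95 and -3.16 in G20, where all 4 were. The difference was 1.68 ± 0.33 (adjusted p = 0.0127) and turned to -1.09 with the normexp background correction. Its probe carries an accession that the reference gene table did not hold, and the other Cyp2b10 probe on the array was not kept. Cyp2b19, a keratinocyte epoxygenase, was well above background on 0 of 4 NC arrays. Its difference was 0.61 ± 0.15, which is 1.53-fold higher in G20 (adjusted p = 0.0367). It turned to -1.47 with normexp, and the call was lost without any 1 of the G20 arrays or NC arrays 1 to 3, at 0.50 to 0.67.

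Of 8 Cyp2c genes, which epoxidise arachidonic acid and hydroxylate steroids, 3 were lower. Cyp2c29 was at 6.16, 6.33, 6.20 and 6.35 in NC, at 4.61, 4.82, 4.90 and 5.04 in CC and at 4.75, 5.47, 5.29 and 4.90 in G20. Both clone groups lay below all NC arrays and overlapped each other, and the G20 difference was -1.16 ± 0.15 (adjusted p = 0.00163), or -0.59 and not called with normexp. Cyp2c70, which makes the muricholic bile acids of rodents, was at 6.96, 6.94, 6.83 and 7.21 in NC and at 6.12, 6.43, 6.52 and 5.94 in G20. It was lower by -0.73 ± 0.13 (adjusted p = 0.00954), with -0.10 and no call under normexp. Cyp2c40 was lower by -0.43 ± 0.11, a call lost in 11 of 15 alternatives, among them those without any 1 of the NC arrays or G20 arrays 1, 3 and 4, at -0.47 to -0.33, and turned to 0.14 under normexp. The other Cyp2c40 probe gave -1.19 and was called lower.

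Cyp2c39, Cyp2c37 and Cyp2c44, the last now named Cyp2c23, were not called, at -0.74 ± 0.31, 0.23 ± 0.40 and -0.65 ± 0.28. The other Cyp2c37 probe gave -0.55, of opposite sign and also not called. The 4 Cyp2d genes, relatives of the human debrisoquine hydroxylase, differed by -0.23 to 0.04 and none was called. Cyp2e1 differed by -0.26 ± 0.25.

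Cyp2f2, which activates naphthalene, was at 3.15, 3.55, 3.32 and 3.44 in NC and at 1.80, 2.88, 2.80 and 1.61 in G20, lower by -1.09 ± 0.25 without overlap (adjusted p = 0.0266). That call was lost in 8 of 15 alternatives, among them those without any 1 of G20 arrays 1 and 4 or NC arrays 2 to 4, at -1.11 to -0.87. Cyp2j5, an epoxygenase, was at 3.14, 2.87, 3.12 and 2.48 in NC and at 1.61, 2.15, 2.34 and 1.22 in G20. It was lower by -1.07 ± 0.23 (adjusted p = 0.0186, and -0.99 without a call when NC array 1 was left out), while its neighbours Cyp2j6 and Cyp2j9, at -0.41 ± 0.13 and 0.31 ± 0.22, were not called. Cyp2s1 and Cyp2u1 were not called, at -0.29 ± 0.23 and -0.48 ± 0.19.

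Of 6 bile acid and cholesterol genes, 1 was called. Cyp39a1, an oxysterol hydroxylase, was at 3.56, 3.36, 3.28 and 3.02 in NC and at 2.56, 2.69, 2.66 and 2.51 in G20, lower by -0.70 ± 0.15 (adjusted p = 0.0167, with -0.18 under normexp and -0.61 without NC array 1, neither called). Cyp7a1 differed by -0.42 ± 0.26, Cyp8b1, which sets the share of cholic acid, by -0.64 ± 0.28, Cyp27a1, the mitochondrial sterol hydroxylase, by -0.28 ± 0.32 and Cyp7b1 by -0.10 ± 0.14, none called. Without NC array 4, Cyp8b1 was at -0.97 and called. Cyp51 differed by -0.24 ± 0.40.

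Among the vitamin D genes, Cyp2r1, the liver enzyme of the first hydroxylation, was at -2.31, -2.41, -2.40 and -3.05 in NC and at -4.92, -3.75, -3.12 and -3.59 in G20, lower by -1.31 ± 0.31 without overlap (adjusted p = 0.0291). That call was lost in 8 of 15 alternatives, among them those without any 1 of G20 arrays 2 and 4 or NC arrays 1 to 3, at -1.39 to -1.23. Cyp27b1, which makes the active hormone in kidney, was higher by 0.66 ± 0.11 (adjusted p = 0.00664) but dim, well above background on 3 of 4 NC arrays and tested only through the G20 arrays, and it turned to -1.30 under normexp. Cyp26b1 differed by -0.99 ± 0.52 and was not called. Cyp17a1, a steroid hydroxylase and lyase, was at 0.31, 0.48, -0.14 and 0.09 in NC and at -0.54, -0.87, -1.09 and -1.74 in G20, without overlap, and its difference of -1.25 ± 0.41 was not called (adjusted p = 0.0876). Of 8 adrenal cortex markers, 1 was well above background on all 4 NC liver arrays and 4 on all 4 G20 arrays, and their part in the value of Cyp17a1 was not tested.

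Genes of 1 cluster did not all share a direction. A cluster of 10 Cyp2a, Cyp2b, Cyp2f, Cyp2g and Cyp2s genes lies on chromosome 7, between probe positions 25511245 and 26842370 of mm8. In it 5 genes were higher and 3 lower. Of the 5, Cyp2b10 and Cyp2b19 were tested only through the G20 arrays and are no support for a direction. Cyp2a4, called lower, stands next to Cyp2b9, called higher. In the Cyp4 cluster of 6 genes on chromosome 4 the 2 called genes, Cyp4a12 and Cyp4a12b, are neighbours. The Cyp2c cluster on chromosome 19 had 3 lower of 7, the Cyp3a cluster on chromosome 5 had 1 lower of 5, the Cyp2j cluster on chromosome 4 had 1 lower of 4, and the Cyp2d cluster on chromosome 15 and the Cyp4f cluster on chromosome 17 had none called among 4 each by limma, and none with an unadjusted p under 0.05.

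**Figure D3:**
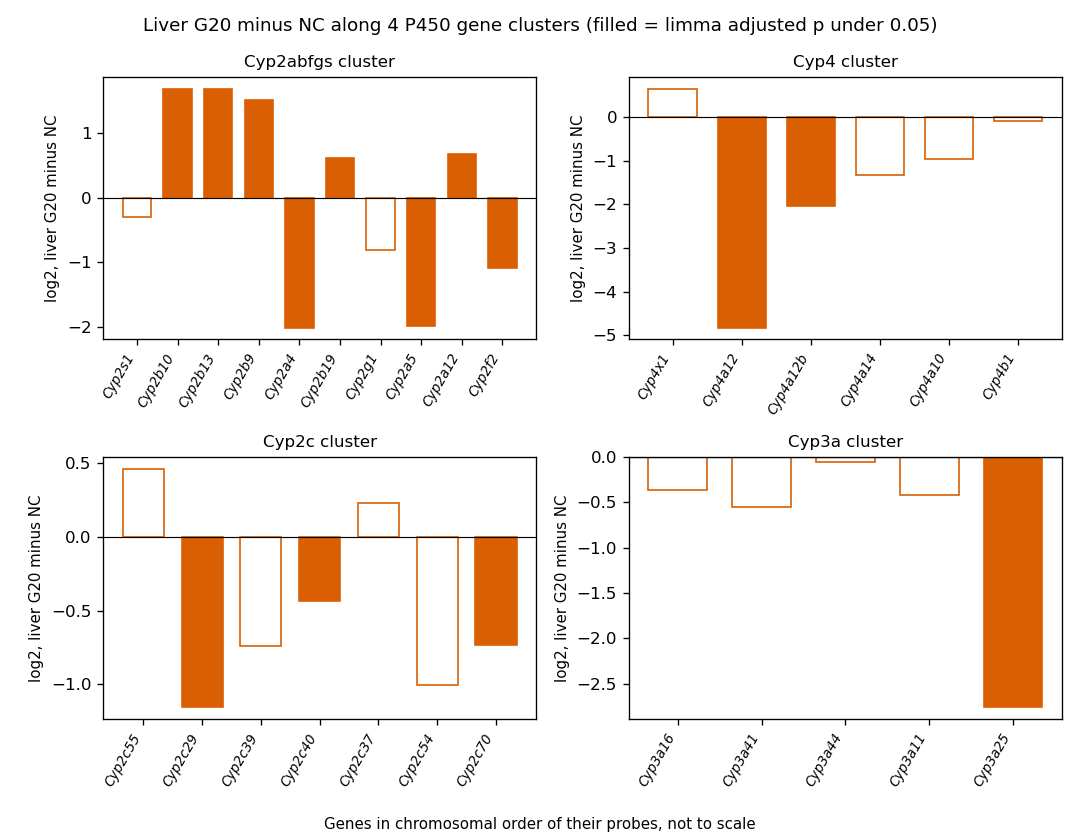
Liver log2 difference, G20 minus NC, of the genes of 4 P450 clusters in the order of their probes on the chromosome, with filled bars for genes called by limma. In the Cyp2abfgs cluster 5 genes are higher and 3 lower, with Cyp2a4 at -2.01 between Cyp2b genes at 1.51 and 0.61, and in the Cyp4 cluster the 2 called genes, at -4.83 and -2.05, stand side by side; Cyp2b10 and Cyp2b19 were tested only through the G20 arrays, and their directions turn with the normexp background correction.

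Other genes of oxidative metabolism in G20 liver were read from lists that were fixed with earlier results of these data known. Of 8 redox partners, the proteins that pass electrons to P450 enzymes, 1 was higher (Fdxr, adrenodoxin reductase, at 0.51) and 0 lower. Of 11 haem synthesis genes, 0 were called by limma and 2 had an unadjusted p under 0.05, with differences of -0.40 to 0.32. Of 27 regulators of P450 genes, 2 were lower: Nr1h3, the liver X receptor alpha, at -0.66, and Ghr, the growth hormone receptor, at -0.41. Of 20 PPAR-alpha targets outside the family, 1 was higher (Slc27a1 at 0.58) and 2 lower (the hormone gene Fgf21 at -3.09 and the fatty acid carrier Cd36 at -0.71).

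Of 30 conjugating enzymes, 2 were higher and 4 lower, with Ugt2a3 at -2.85, Sult5a1 at -2.38, Ugt1a1, the bilirubin glucuronosyltransferase, at -1.97 and Gsta2, a glutathione transferase, at 1.72.

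In CC liver, from clones not recloned, most called members were lower. Of 58 members, 2 were higher and 19 lower in CC than in NC, where 20.5% of all genes were called in each direction and 41% in all, and the arrays did not overlap for 15 members against 38.7% of all genes. The comparison shares the NC arrays with that of G20. The median was -0.27 over the members and 0.04 over all genes. Beside it, 9 of 15 hepatocyte markers were lower in CC, with Alb1, albumin, at -1.31, and their mean was 5.50 to 6.03 on the CC arrays. Of 13 erythroid markers 5 were lower and none higher, and of 10 myeloid markers 5 were lower and 1 higher, while 5 of 9 stellate cell and fibroblast markers were higher and none lower, with a median of 0.55. The part of these cell types in the values of the P450 genes was not tested. With a normexp background correction 2 members were called, Cyp2c29 and Cyp4a12, where 1.33% of all genes were called.

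Those 2 were called under all 15 alternatives, Cyp2c29 at -1.42 ± 0.15 and Cyp4a12 at -1.27 ± 0.24. Cyp2j13 was at 0.33, -1.28, -1.36 and -1.75 in NC and at -3.74, -4.11, -3.07 and -3.31 in CC, where 2 of 4 arrays were well above background, lower by -2.54 ± 0.39. Cyp2c39 was at 0.33, 0.67, 0.38 and 0.38 in NC and at -2.57, -0.70, -1.14 and -1.26 in CC, lower by -1.86 ± 0.31. In both the groups did not overlap. Cyp51 was lower by -1.54 ± 0.40 and Cyp3a44 by -1.14 ± 0.29, and with the deposited matrix in place of the scanner values these 2 turned to 0.19 and 0.02.

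Cyp3a25 was at -0.24 ± 0.49 and Cyp2b9 at 0.32 ± 0.20 in CC against NC, neither called, and Cyp2a4 was lower by -1.20 ± 0.39, a call lost without any 1 of CC arrays 2 and 3 or NC arrays 2 and 3, at -1.16 to -0.97. The direct comparison of G20 with CC called 15 members higher and 11 lower, where 23.7% and 21.9% of all genes were called, 45.6% in all, and the arrays did not overlap for 17 members against 40.7% of all genes. Among the 15 are all 5 members tested only through the G20 liver arrays, so these 5 are no support for a direction. Cyp4a12 was lower in G20 than in CC by -3.56 ± 0.24, Cyp3a25 by -2.52 ± 0.49 and Cyp8b1 by -1.27 ± 0.28, and Cyp2b9 was higher by 1.19 ± 0.20. On the deposited matrix, whose CC columns carry a further factor for each probe, 0 of the 51 members with a value were called by limma in this comparison and 0 had an unadjusted p under 0.05, with Cyp2b9 at -0.15. Of all 14383 genes with a value there, 0 were called.

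**Figure D4:**
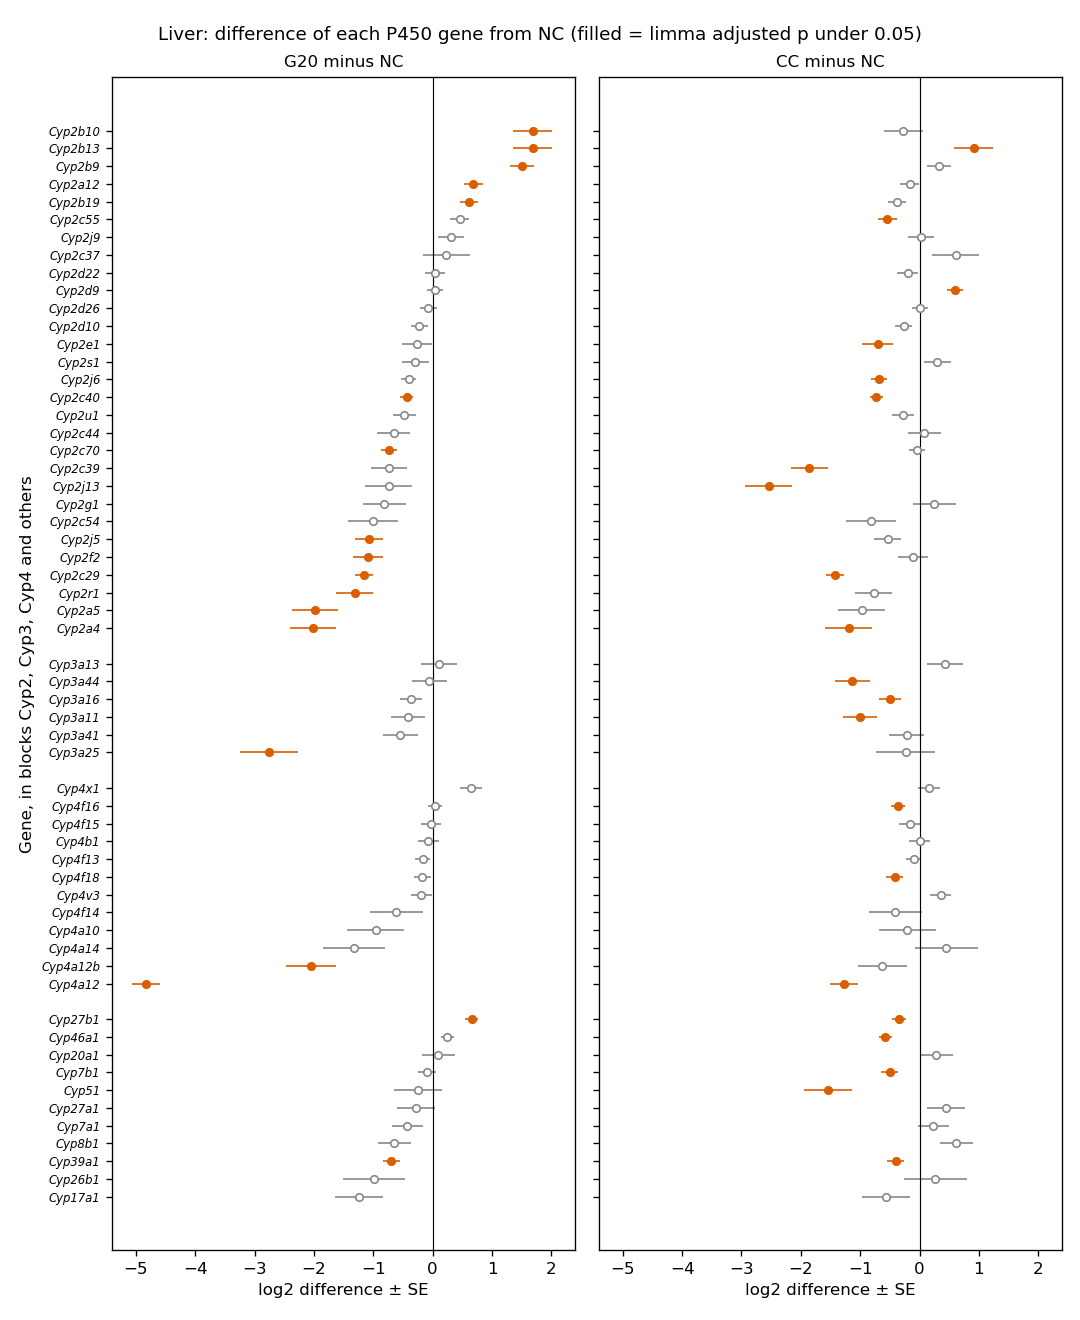
Log2 difference from NC with its standard error for the 58 P450 genes tested in liver, G20 at left and CC at right, in blocks Cyp2, Cyp3, Cyp4 and others, filled where limma called the gene. At left 6 genes are filled to the right of 0 and 12 to the left, led by Cyp4a12 at -4.83; at right 2 and 19 are filled; both panels share the NC arrays, and the signs of Cyp2b10, Cyp2b19, Cyp2c40 and Cyp27b1 at left turn with the normexp background correction, as do Cyp51, Cyp3a44 and Cyp2d9 at right on the deposited matrix.

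In brain, 28 members were tested and limma called 0 of them between G20 and NC, where 1.61% of all genes were called, 1.08% higher and 0.536% lower. Leaving out 1 array moved the share of all genes to between 0.656% without G20 array 1 and 2.82% without G20 array 3, and it was more than 1.5 times lower without any 1 of G20 arrays 1, 2 and 4 or NC arrays 1, 2 and 4. Of the 28 members, 6 had an unadjusted p under 0.05, and the arrays did not overlap for 2, against 12.1% of all genes. The share of all genes with such an unadjusted p was not counted, so the 6 cannot be set against it. Differences ran from -0.33 to 0.60. Cyp2s1, an extrahepatic enzyme, was at -1.73, -1.39, -1.41 and -1.56 in NC and at -1.08, -0.52, -1.15 and -0.94 in G20. Cyp7b1 was at -0.66, -0.80, -0.84 and -0.76 in NC and at -0.41, -0.39, -0.43 and -0.61 in G20. Both were without overlap, by 0.60 ± 0.15 (adjusted p = 0.0645) and 0.31 ± 0.07 (adjusted p = 0.0612). Without G20 array 3, Cyp2s1 was at 0.68 and called.

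Between CC and NC brain, 15 of 28 members were higher and 4 lower, where 69.4% of the 18298 genes tested were called, 42.1% higher and 27.3% lower. The arrays did not overlap for 16 members against 63.9% of all genes. Cyp2s1 was higher by 1.46 ± 0.15, at 0.09, 0.09, -0.36 and -0.06 on the CC arrays, Cyp4x1 by 0.82 ± 0.11 and Cyp7b1 by 0.74 ± 0.07. Cyp2c70 was lower by -1.59 ± 0.19, with a sign that turned to 0.46 under normexp. G20 against CC in brain gave 4 higher and 10 lower, where 27.7% and 39.9% of all genes were called, 67.6% in all, and for 14 members the arrays did not overlap against 59.5% of all genes. On the deposited matrix limma called 0 of 24 members in either brain comparison with CC, and 5 against NC and 1 against G20 had an unadjusted p under 0.05. Of all genes with a value there, 1.34% were called against NC and 0.823% against G20. Of 8 hepatocyte markers tested in brain, 5 were higher in CC than in NC and 1 lower, with a median of 1.08. Of the 15 hepatocyte markers on the array, 8 were not well above background on any CC brain array. The part of hepatocyte markers in these P450 values was not tested.

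**Figure D5:**
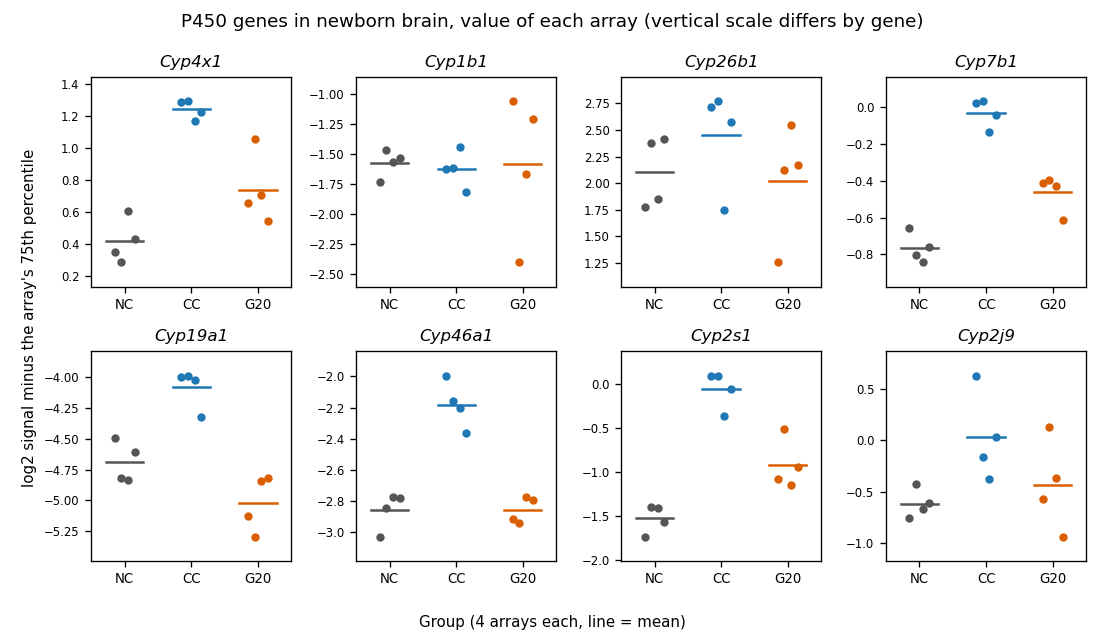
Log2 signal minus the array's 75th percentile for 8 P450 genes in brain, 1 point per array and a line at the mean of the 4 arrays of NC, CC and G20, with a vertical scale of its own for each gene. All genes drawn but Cyp1b1 have their highest mean in CC on these values, where 42.1% of all genes were called higher in CC than in NC. For Cyp2s1, Cyp7b1 and Cyp4x1, G20 lies above CC on the deposited matrix. G20 and NC differ by 0.60 or less and none of the 8 was called between them.

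The difference between the tissues was itself tested over 26 members measured in both. Limma called 3 lower in liver than in brain for the G20 effect, where 3.85% of all genes were called, 1.67% higher and 2.19% lower. The liver effect minus the brain effect was -2.35 ± 0.45 for Cyp2a5 (adjusted p = 0.0045), -2.26 ± 0.45 for Cyp2a4 (adjusted p = 0.00654) and -0.69 ± 0.18 for Cyp39a1 (adjusted p = 0.0291). With the normexp background correction none of the 3 was called (adjusted p = 0.0542, 0.0650 and 0.443), and Cyp39a1 lost its call in 10 alternatives, 7 of which leave out 1 array, at -0.69 to -0.60. Cyp2a4 was at -3.23, -3.09, -3.01 and -3.38 in NC brain and at -2.95, -2.39, -3.25 and -3.13 in G20 brain, where the groups overlap. Cyp4a12, Cyp3a25 and the Cyp2b genes could not enter this test, since they were not measured in brain.

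The 13 P450 genes that no group measured on all 4 arrays were Cyp11a1, Cyp11b2, Cyp1a1, Cyp1a2, Cyp21a1, Cyp24a1, Cyp26a1, Cyp2c38, Cyp2c65, Cyp2c66, Cyp2d13, Cyp2j11 and Cyp2w1. Nearest to being kept were Cyp26a1, a retinoic acid hydroxylase, and Cyp2j11, each well above background on 3 of 4 arrays of a group. Cyp1a2, which metabolises caffeine in adult liver, reached 2 of 4.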

How the data were processed

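RNA of 24 samples was hybridised to single-colour arrays. Per the file headers, Agilent Feature Extraction 9.5.3.1 made the deposited spot intensity, background-subtracted and detrended within each array, and deposited other columns, such as score-like flags of 0 or 1 for signal well above background and for outliers. The matrix the authors deposited holds intensity values whose scale is not stated in the sources used here; its NC and G20 columns followed the scanner signal up to 1 factor per array (SD of the log2 ratio 0.0103 to 0.0554), its CC columns did not (0.627 to 0.657), and its column medians were 224 to 489.

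Outlier spots were dropped, spots of a probe averaged, log2 taken and the 75th percentile of the array subtracted. A probe was tested in a tissue if all 4 arrays of any of its groups had it well above background, with the probe of highest mean for each gene. limma 3.58.1 in R 4.3.3 was fitted over the 12 arrays of a tissue, or all 24 between tissues, with Benjamini-Hochberg adjustment over all genes. The fit was tested on simulated data. Of 80 kept probes, 75 matched the reference gene table and 3 had another current symbol.

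Members and lists were chosen with earlier results of these data known. Named were called members, at most the 10 highest and 10 lowest per comparison, role lists, a fixed set of common P450 genes, and up to 4 called genes of each other list. The result of 1 of these other lists is not reported here. Replicate numbers did not pair groups within a tissue (same-number correlations of -0.229 to 0.133). NC brain and liver share animals by label. Between liver and brain the same-number correlations were 0.0200 to 0.327 in NC, 0.182 to 0.241 in CC and 0.0434 to 0.184 in G20. What arrays of the same number share was not tested. The number of arrays limits the precision. Alternatives were normexp background correction (offset 50), median scaling, quantile normalization, no filter on dim probes, every probe on its own, the deposited matrix, only the groups compared, the replicate block and leaving out each array.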

Additional observations from a re-analysis of the deposited data

Results flagged for a closer look

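Of 242 groups of 4 arrays examined, 15 held 1 array far from the other 3 (Dixon's ratio above 0.829), and chance gives about 1 in 20 such groups. In NC liver, array 4 stood apart for 5 genes: Cyp2b13 at -3.57 (others -2.17 to -1.98), Cyp2r1 at -3.05 (-2.41 to -2.31), Cyp4a10 at 1.53 (3.16 to 3.28), Cyp4a14 at 4.83 (6.51 to 6.61) and Cyp2c40 at 7.82 (7.39 to 7.40). Without that array Cyp4a14 was at -1.76 in G20 against NC, still not called. Cyp2c39 was high on NC liver array 2, at 0.667, and Cyp2j6 low on array 1, at 0.204.

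In CC liver, array 1 was low for Cyp2d10 at 5.59 and for Cyp2d26 at 8.03, array 2 high for Cyp2g1 at -2.54 and array 3 high for Cyp2j6 at -0.0216. G20 liver array 3 was low for Cyp2b13, at -1.16. In brain, CC array 1 was high for Cyp17a1 at -3.33, CC array 4 low for Cyp19a1 at -4.32 and G20 array 4 low for Cyp7b1 at -0.612.

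The G20 effect differed between liver and brain by the interaction term of limma for Cyp2a4 at -2.26, Cyp2a5 at -2.35 and Cyp39a1 at -0.689.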

How the results depend on the processing

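Of 18 P450 genes called between G20 and NC in liver, 6 stayed called under every alternative (Cyp4a12, Cyp4a12b, Cyp3a25, Cyp2a4, Cyp2a5 and Cyp2b9). Of 58 called between NC liver and NC brain, 51 stayed called under every alternative that tested them. The deposited matrix had values for only 25 members in that comparison. Leaving out each array gave 12 to 17 calls for liver G20 against NC, 13 to 21 for CC against NC, 20 to 28 for G20 against CC, 57 to 58 for liver against brain and 2 to 5 for the difference of the G20 effects. In brain it gave 0 to 1, 18 to 23 and 14 to 19 calls for the same 3 comparisons of groups.

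With the replicate block, although the numbers pair no groups within a tissue, calls were 14, 16 and 24 in liver and 0, 21 and 15 in brain for the same comparisons. For the difference of effects the block was set within each tissue, not by animal, and gave 2 calls. With the animal number as a block over the NC arrays, liver against brain gave 58 calls.

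With normexp, calls fell to 2 for liver CC against NC, 7 for liver G20 against CC, 8 for brain CC against NC and 2 for brain G20 against CC, where 1.33%, 13.8%, 29.2% and 20.3% of all genes were called. Without a filter on dim probes, which tests more genes, they were 56 and 51 for these brain comparisons and 11 for the difference of effects, of 73 each, where 72.7%, 71.0% and 3.49% of all genes were called. The deposited matrix, which has values for fewer members, gave 0 for liver G20 against CC, 0 for both brain comparisons with CC and 24 for liver against brain, where 0% of all genes, 1.34% and 0.823% in brain and 89.5% were called.

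Signs turned with normexp for liver G20 against NC in Cyp27b1 (-1.30), Cyp2b10 (-1.09), Cyp2b19 (-1.47), Cyp2c40 (0.14), Cyp2c55 (-1.52), Cyp46a1 (-1.15) and Cyp4x1 (-1.29). They turned for liver G20 against CC in Cyp27b1 (-0.79), Cyp2b10 (-0.54), Cyp2b19 (-0.89), Cyp2c55 (-0.96), Cyp46a1 (-0.69), Cyp4f16 (-0.061), Cyp4x1 (-0.86) and Cyp7b1 (-0.50). In brain they turned in Cyp2c70 (0.46), Cyp2j6 (0.32) and Cyp4v3 (0.18) for CC against NC and in Cyp2c70 (-0.043) and Cyp2j6 (-0.019) for G20 against CC, and between NC tissues in Cyp19a1 (2.10), Cyp1b1 (0.21) and Cyp46a1 (1.17).

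With the deposited matrix they turned for liver CC against NC in Cyp2a12 (0.60), Cyp2d9 (-0.056), Cyp3a44 (0.022) and Cyp51 (0.19), and for liver G20 against CC in Cyp2b9 (-0.15), Cyp2c44 (0.067), Cyp2c70 (0.074), Cyp2d9 (0.087), Cyp2f2 (0.027), Cyp3a44 (-0.058), Cyp4a12b (0.083), Cyp4a14 (0.13), Cyp51 (-0.42) and Cyp7b1 (-0.0698). They also turned for brain CC against NC in Cyp2j6 (0.059), for brain G20 against CC in Cyp2a5 (0.023), Cyp2d26 (0.018), Cyp2s1 (0.21), Cyp4x1 (0.025) and Cyp7b1 (0.059), and between NC tissues in Cyp20a1 (-0.80) and Cyp2u1 (-0.54). The cause of these turns was not tested. Signal near background limits the dim members, of which 4 were below it on at least 1 array of both NC tissues.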

Other observations

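Of 10 members listed as sex-biased in adult mouse liver, 2 were higher in G20 than in NC liver (Cyp2b9 and Cyp2b13) and 3 lower (Cyp4a12, Cyp4a12b and Cyp2a4), with a median of -0.23 on the log2 scale. Of all genes tested, 3.98% were called higher and 3.09% lower. The arrays came from females alone, and the list was chosen with earlier results of these data known.

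Other cell type markers in G20 liver against NC had 0 called of 10 Kupffer cell markers by limma, with 3 at an unadjusted p under 0.05. Of 5 cholangiocyte markers 1 was called lower (Tacstd1 at -1.31) and 4 had an unadjusted p under 0.05. All 5 differences lay between -1.31 and -0.07, with a median of -0.72. Called lower were 1 of 9 stellate cell markers (Lrat at -0.80) and 2 of 7 endothelial markers. In these lists 4 and 3 markers had an unadjusted p under 0.05. The share of all genes with such an unadjusted p was not counted, so these counts cannot be set against it. The part of these cell types in the P450 values was not tested.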
